A study of Mus musculus with 8 samples.

Results

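The transcriptional response of efferocytic macrophages (Mϕ) to LPS/IFNγ was described from total RNA sequencing of 4 samples. These were 2 samples of efferocytic Mϕ (Eff) and 2 samples of efferocytic Mϕ that were afterwards stimulated (LPSEff). The members of the response were every gene whose mean over the 8 samples of the series reached 10 normalized counts, that is 16309 of the 55359 genes listed. Mϕ were differentiated from bone marrow of adult C57BL/6 wildtype mice of both sexes with M-CSF and GM-CSF (20 ng/mL each), and the labels give 7 days for the culture and 6 days before co-culture. Both Eff and LPSEff were then kept for 16 h with apoptotic NIH-3T3 CA fibroblasts, a mouse line whose caspase-8 is switched on by the dimerizer, at 5 apoptotic cells per Mϕ and with 10 nM dimerizer throughout. After PBS washes, LPSEff received LPS (100 ng/mL) with murine IFNγ (100 U/mL) for 6 h, and CD45+ cells were taken for RNA. The Ctrl and LPS groups (n = 2 each) are naïve Mϕ that saw no apoptotic cells, and they are used below only for comparison. Fibroblast RNA can be carried into Eff and LPSEff alike. Nothing in the sources used here says that samples 1 and 2 of a group came from separate mice or cultures, so that the p-values measure the spread between these samples, which may be technical.

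LPS is bound by CD14, MD-2 and TLR4, which signal through MyD88 and TRIF to NF-κB, AP-1 and IRF3 and so turn on cytokine, chemokine and type I interferon genes. IFNγ acts through its receptor, JAK kinases and STAT factors on GAS elements, whereas type I interferon acts through STAT factors and IRF9 on ISRE elements. Together both stimuli are the standard way to drive Mϕ in culture into an inflammatory, microbicidal state. Mϕ that have cleared apoptotic cells are known for a dampened inflammatory output, and the comparison of LPSEff with Eff asks which genes still respond after efferocytosis.

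Reads recovered from the deposited values numbered from 7472370 to 11267193 in the Eff and LPSEff samples and from 3481288 to 12020918 over all 8, so that 3 reads were worth between 1.73 and 5.71 normalized counts. Markers of Mϕ were present, and those of lymphocytes were too low to be tested. Lyz2, which encodes lysozyme, was at rank 3 of the tested protein-coding genes outside the mitochondrial genome, by level per kilobase of exon, in both Eff and LPSEff, 22 of 23 Mϕ identity genes could be tested, and none of 14 lymphocyte markers could (summed levels of 35.9 and 17.6 normalized counts in Eff and 37.2 and 27.9 in LPSEff). Of 12 dendritic cell markers 9 could be tested, and of 12 neutrophil markers 8, so that being tested does not set Mϕ apart from these cells. Dendritic cell markers summed to 4048 and 8080 normalized counts in Eff and 19292 and 23047 in LPSEff. Mϕ identity genes summed to 141413 and 165574 in Eff and 152566 and 200663 in LPSEff. Fibroblast markers were present, with 30 of 32 tested and none at 0 in all 4 samples. Their summed level in efferocytic samples was 9768 and 15505 normalized counts before and 27009 and 25392 after stimulation. In naïve samples it was 4873 and 4998 before and 13057 and 10877 after. It was thus higher with stimulation in naïve and in efferocytic Mϕ, and its part in the results was not tested.

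At an adjusted p under 0.05 in limma, 3213 of the 16309 genes differed between LPSEff and Eff (19.7%), with 1753 higher (10.7%) and 1460 lower (8.95%) after LPS/IFNγ. The rises were larger than the falls. Of the genes higher, 720 rose by at least 2 and 167 by at least 4 on the log2 scale, while 232 genes fell by at least 2 and 4 by at least 4. The median log2 fold change was 1.73 among the genes that rose, −1.28 among those that fell, and 0.01 over all tested genes. In all 3213 genes the LPSEff samples lay apart from the Eff samples, as they did in 59.9% of all tested genes. Fold changes are differences of log2(normalized count + 1), which understates the change of low genes, and each group has n = 2.

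The shift also showed in the make-up of the RNA. Genes called higher held 12% and 11.6% of all normalized counts in the Eff samples and 36.5% and 33.3% in the LPSEff samples. Genes called lower held 11.9% and 10.9% in Eff and 3.55% and 3.63% in LPSEff. The balance of calls depends on how samples are scaled. When every sample was given the same total, the median of all genes shifted to −0.44, and 21.8% of the calls were higher, against 54.6% with the deposited size factors and 43.9% after quantile normalization. All 1460 genes called lower kept their call and direction with equal totals, and 1216 of the 1753 called higher did. Fold changes below are to be read against that shift of the median gene.

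**Figure D1:**
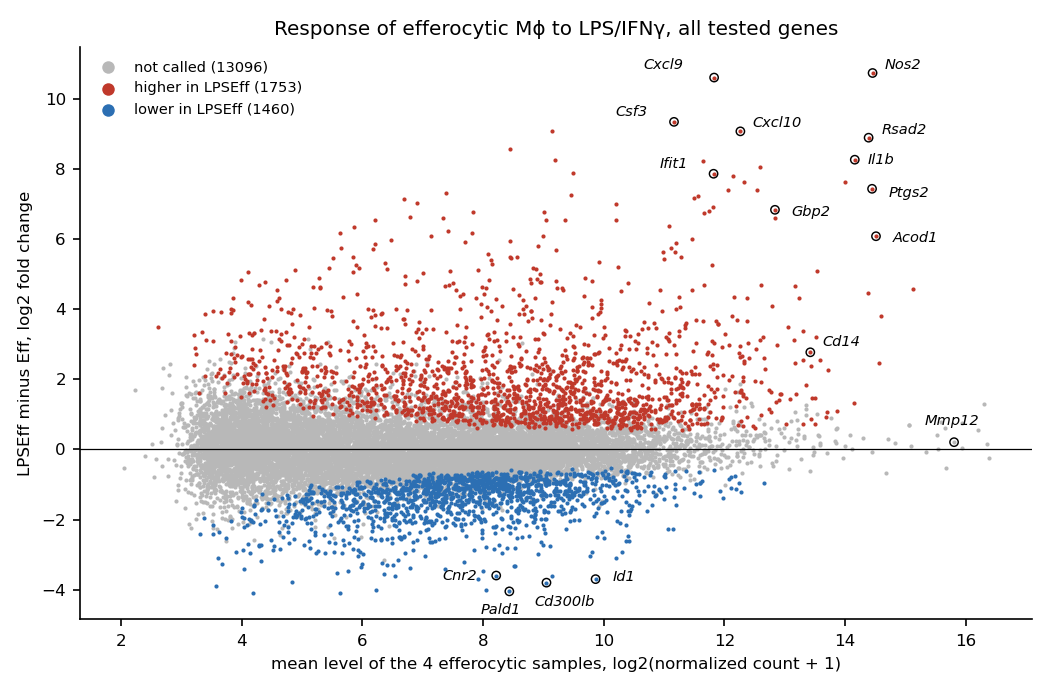
Log2 fold change of LPSEff against Eff (vertical axis) and mean level of the 4 efferocytic samples as log2(normalized count + 1) (horizontal axis) for the 16309 tested genes, 1 point per gene, with genes called by limma in colour. Rises reach a log2 fold change of 10.73 at Nos2 and Pald1 lies at −4.04 on the lower side.

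Among genes with over 3 reads in every Eff and LPSEff sample, the largest rise was that of Nos2, the inducible nitric oxide synthase (ENSMUSG00000020826, chromosome 11 from 78811613 to 78851080, GRCm39). It had 23.7 and 26.8 normalized counts in the Eff samples and 50428 and 39259 in the LPSEff samples (log2 fold change 10.73, SE 0.27, limma adjusted p = 9.37e-07). Csf3, which encodes the granulocyte growth factor G-CSF, had 7.89 and 4.23 in Eff and 5811 and 3350.5 in LPSEff (log2 fold change 9.34, SE 0.90, limma adjusted p = 0.000321). Nos2 was thus close to silent before stimulation and among the most abundant of the protein-coding genes after it. Cxcl10, a chemokine for T cells (ENSMUSG00000034855, chromosome 5 from 92494497 to 92496748), went from 12.3 and 21.9 to 6819.8 and 12808 normalized counts (log2 fold change 9.07, SE 0.34, limma adjusted p = 4.95e-06). Rsad2, which encodes the antiviral enzyme viperin, went from 114 and 69.2 to 47731 and 37825 (log2 fold change 8.89, SE 0.32, limma adjusted p = 4.29e-06), and its neighbour Cmpk2, a mitochondrial nucleotide kinase, from 84.1 and 22.6 to 15622 and 8949.8 (log2 fold change 8.04, SE 0.67, limma adjusted p = 0.000149). The inflammatory cytokines Il1b and Il6 were also among the 10 largest rises. Il1b was at 129.7 and 107 in Eff and 37496 and 35413 in LPSEff (log2 fold change 8.26, SE 0.28, limma adjusted p = 3.62e-06). Il6 was at 17.5 and 24 in Eff and 6706 and 6060.02 in LPSEff (log2 fold change 8.21, SE 0.24, limma adjusted p = 2.42e-06). The remaining members of the 10 were the interferon-induced Ifit1 (7.86) and Oasl1 (7.79) and the glutamate transporter gene Slc1a2, whose 6.13 and 4.23 normalized counts in Eff became 1515 and 1343 in LPSEff (log2 fold change 7.87, SE 0.32, limma adjusted p = 6.66e-06).

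Some genes had at most 3 reads in both Eff samples, which held for 54 tested genes, 48 of them called higher, and their fold change is not given. Such genes reached the mean of 10 only through other samples, so that the filter in part set how many were called higher. Art3, which overlaps Cxcl10 so that its count is uncertain, was at 0.876 and 0.706 normalized counts in Eff and 551 and 1706 in LPSEff. U90926 was at 0.876 and 0.706 in Eff and 884 and 514 in LPSEff, and Il36a, a cytokine of the IL-1 family, at 2.63 and 0 in Eff and 470.3 and 190.4 in LPSEff. Serpina3f, a serine protease inhibitor gene, was at 0.876 and 0.706 in Eff and 269.97 and 203 in LPSEff. The microRNA gene Mir6381, which lies within Gbp2 so that its count is uncertain, was at 1.75 and 0.706 in Eff and 183 and 251 in LPSEff. These 5 were the most abundant such genes in LPSEff. The limma adjusted p was between 4.32e-05 (Serpina3f) and 0.000831 (Il36a), and all 5 had more than 100 normalized counts in each LPSEff sample.

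Levels per kilobase of exon, ranked over the same protein-coding genes, placed some induced genes among the most abundant. Acod1, which makes itaconate, went from rank 673 in Eff to rank 10 in LPSEff, Il1b from rank 4756 to 12, Nos2 from rank 10549 to 16, Rsad2 from rank 7420 to 17 and Il1a from rank 4648 to 20. Genes of the resting Mϕ filled the first places in both groups, with Ccl6, Gm49369, Lyz2, Psap and Ctsd as the first 5, in differing order, in Eff and in LPSEff.

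**Figure D2:**
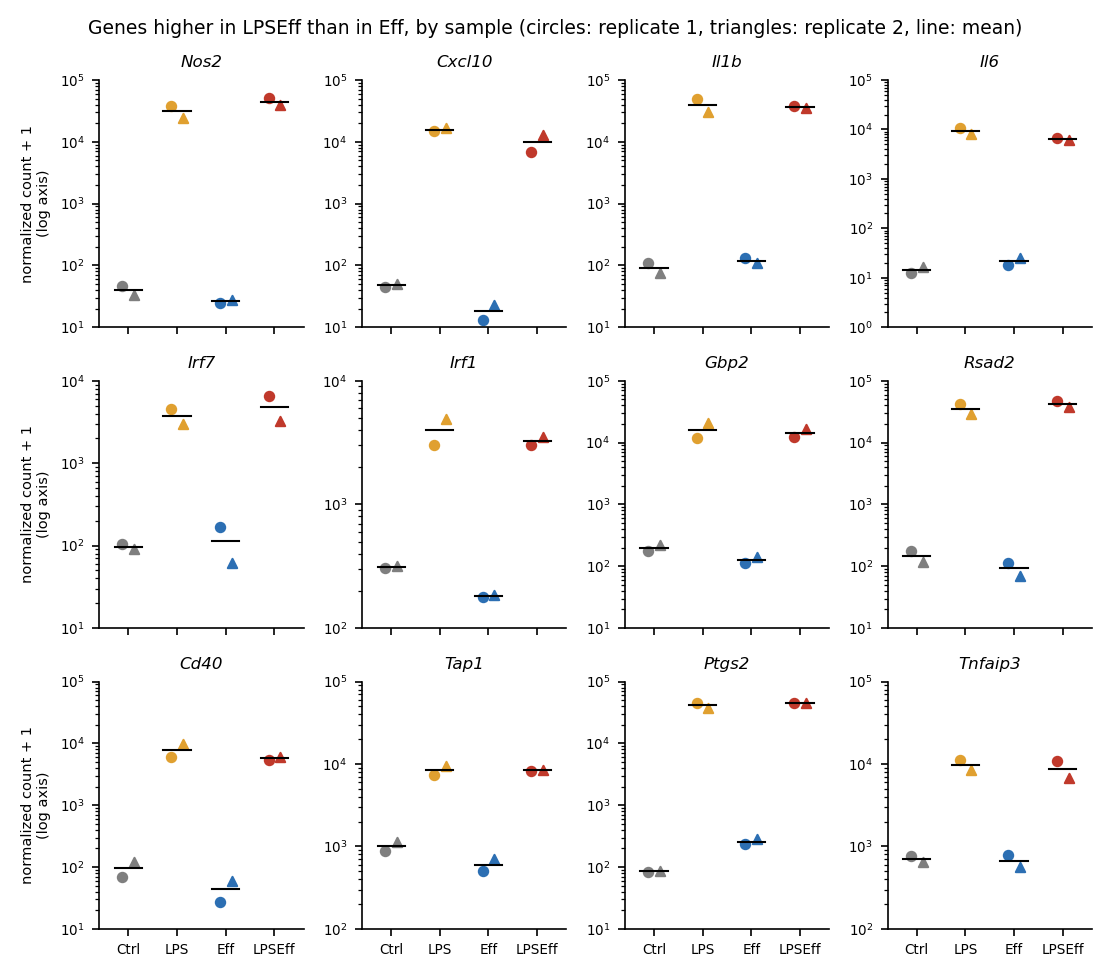
Normalized count + 1 of 12 genes that rose (log axis) in each sample of the 4 groups, with circles for replicate 1, triangles for replicate 2 and a line at the mean. In every panel both LPSEff samples lie above both Eff samples, as for Nos2 at 50428 and 39259 against 23.7 and 26.8.

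At the receptors, rises were smaller and not uniform. Of 22 TLR4 pathway genes tested, 11 rose and 2 fell (7 and 6 with equal totals), with a median log2 fold change of 0.82 against 0.01 over all tested genes. Leaving out 1 sample changed the count of rises to 7 without Eff replicate 1, 6 without Eff replicate 2 and 5 without LPSEff replicate 1, and that of falls to 0 without Eff replicate 1, Eff replicate 2, LPSEff replicate 1 or LPSEff replicate 2 and 1 without Ctrl replicate 1 or Ctrl replicate 2. Cd14, the co-receptor for LPS, rose from 3010.03 and 2587 to 17098 and 21198 normalized counts (log2 fold change 2.77, SE 0.29, limma adjusted p = 0.000512). Tlr4 itself was at 1184 and 1455 in Eff and 824 and 1133 in LPSEff and was not called (log2 fold change −0.44, SE 0.21, limma adjusted p = 0.191), and neither was Ifngr1, the ligand-binding chain of the IFNγ receptor (log2 fold change −0.53, SE 0.29, limma adjusted p = 0.263). Under equal totals both Tlr4 and Ifngr1 were called lower (−0.89 and −0.98), and Tlr4 also after quantile normalization (−0.74). Peli1, an E3 ubiquitin ligase of the pathway, rose (2.63). So did Irak3, a kinase-dead brake on the pathway, from 165 and 91.7 to 804 and 527 (log2 fold change 2.39, SE 0.44, limma adjusted p = 0.00701), although this call was lost without LPSEff replicate 1 (2.09, adjusted p = 0.0538). The genes that fell were Irak1 (−0.75) and Tab1 (−0.87), which encode a kinase and an adaptor downstream of MyD88.

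Further down the interferon pathway, 12 of 15 receptor, JAK and STAT genes rose and none fell, against 7 and 2 with equal totals (median 1.06). With 1 sample left out, the count of rises was 7 without Eff replicate 1, Eff replicate 2 or LPSEff replicate 1. Stat2 (log2 fold change 3.22) and Jak2 (2.75) were among them. Among 8 interferon regulatory factors tested, 5 rose and none fell (median 1.44). Irf7, which amplifies type I interferon production, went from 166 and 61.4 to 6463 and 3212 (log2 fold change 5.48, SE 0.49, limma adjusted p = 0.000203). Irf1, an early IFNγ target, went from 179 and 183 to 3001 and 3533 (log2 fold change 4.16, SE 0.24, limma adjusted p = 2.99e-05), and both Eff samples differed by only a few counts. Irf9 (1.82), Irf8 (1.74) and Irf5 (1.00) rose too, whereas Irf3, which is activated as a protein, was not called (−0.22, adjusted p = 0.515 from limma).

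NF-κB genes rose almost as a block, with 12 of 14 higher, none lower and a median of 2.29. All 5 subunit genes were among them, from Rela (1.21) to Nfkb2 (3.08). The inhibitor genes moved with them. Nfkbia, which encodes IκBα, rose from 1335 and 1059 to 7178 and 5533 normalized counts (log2 fold change 2.41, SE 0.21, limma adjusted p = 0.000195), and Nfkbiz (3.74) and Nfkbie (2.59) rose by more. AP-1, ATF and C/EBP genes were mixed. Batf2 (4.43), Atf3 (2.25) and Junb rose, Fos (−2.14) and Cebpa fell, and 11 of 16 were not called (2 higher and 3 lower with equal totals). Cebpa, a myeloid lineage factor, was at 757 and 988 in Eff and 127 and 218 in LPSEff (log2 fold change −2.37, SE 0.44, limma adjusted p = 0.00709), and its call was lost without LPSEff replicate 1 (−1.98, adjusted p = 0.0528).

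Genes of negative feedback rose in 17 of 22 cases, with none lower and a median of 1.84. Usp18, which ends type I interferon receptor signaling, went from 293 and 196 to 6540.3 and 5927 (log2 fold change 4.69, SE 0.22, limma adjusted p = 1.47e-05). Tnfaip3, which encodes the NF-κB inhibitor A20, went from 777 and 555 to 10793 and 6736 (log2 fold change 3.70, SE 0.29, limma adjusted p = 0.000105). Dusp2 (3.32), a MAP kinase phosphatase, and Socs1 (2.54), an inhibitor of JAK kinases, rose as well. Socs3 rose from 2352 and 1221 to 8578 and 5122 (log2 fold change 1.97, SE 0.38, limma adjusted p = 0.00899), a call that was lost without Eff replicate 2 (1.49, adjusted p = 0.0555), without LPSEff replicate 1 (1.6, adjusted p = 0.0632) or after quantile normalization (1.32, adjusted p = 0.0634).

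Promoter sequences of responding genes are shown because these genes rose together and carry the letters that the named factors are known to bind. The 250 bases before the start of the canonical transcript (GENCODE M39) were read from GRCm39 and searched on both strands for an ISRE core (TTCNNTTTC), a GAS pattern (TTCNNNGAA), an NF-κB pattern (GGANTTTCC), an AP-1 pattern (TGANTCA), an E-box (CACGTG) and an E2F pattern (TTTCCCGC). Matches of different patterns may overlap. The stretches below run from 10 bases before the first match to 10 bases after the last, or to the edge of the window, 5′ to 3′ along the gene, with matches in capitals. Ifit1, Isg15 and Rsad2 are interferon-induced antiviral genes with ISRE cores, and the Isg15 stretch also holds an NF-κB match and that of Rsad2 an AP-1 match. Irf1 holds a GAS pattern, in a stretch that overlaps an exon of Gm74496, and Gbp5 holds in turn an AP-1, an ISRE core and a GAS match. Cxcl10 holds an ISRE core, an NF-κB and an AP-1 match, Nfkbia 2 NF-κB matches with an ISRE core between them, and Ccl5, Cxcl2 and Acod1 an NF-κB match each.
Ifit1 (chr19:34618170-34618223, plus strand, 101 to 48 bases before the start): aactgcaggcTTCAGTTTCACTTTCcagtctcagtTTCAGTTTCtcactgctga
Isg15 (chr4:156285304-156285363, minus strand, 60 to 1 bases before the start): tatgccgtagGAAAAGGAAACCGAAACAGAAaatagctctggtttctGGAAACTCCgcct
Rsad2 (chr12:26506522-26506580, minus strand, 129 to 71 bases before the start): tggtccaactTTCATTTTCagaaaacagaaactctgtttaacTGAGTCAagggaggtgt
Irf1 (chr11:53660741-53660769, plus strand, 100 to 72 bases before the start): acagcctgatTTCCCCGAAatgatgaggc
Gbp5 (chr3:142202334-142202468, plus strand, 200 to 66 bases before the start): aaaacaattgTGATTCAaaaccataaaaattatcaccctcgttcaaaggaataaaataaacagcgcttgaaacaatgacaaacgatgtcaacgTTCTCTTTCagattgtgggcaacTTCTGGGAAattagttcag
Cxcl10 (chr5:92496806-92496971, minus strand, 223 to 58 bases before the start): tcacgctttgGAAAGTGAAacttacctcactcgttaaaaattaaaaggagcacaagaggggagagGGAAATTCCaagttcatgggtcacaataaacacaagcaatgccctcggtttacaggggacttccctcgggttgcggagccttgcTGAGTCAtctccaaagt
Nfkbia (chr12:55539443-55539620, minus strand, 188 to 11 bases before the start): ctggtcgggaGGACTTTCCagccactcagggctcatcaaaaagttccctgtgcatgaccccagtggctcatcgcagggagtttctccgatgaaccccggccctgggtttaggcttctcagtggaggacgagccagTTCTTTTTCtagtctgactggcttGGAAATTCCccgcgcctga
Ccl5 (chr11:83421416-83421444, minus strand, 99 to 71 bases before the start): tgtcttttgtGGAAACTCCccaagtcctg
Cxcl2 (chr5:91051652-91051680, plus strand, 78 to 50 bases before the start): ctgagctcagGGAATTTCCctggtccccg
Acod1 (chr14:103284353-103284381, plus strand, 60 to 32 bases before the start): ttgaaatggtGGAAATTCCatggttgaaa

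Over all 12498 tested protein-coding genes, 7.32% of the windows held an ISRE core, 6.71% a GAS pattern, 1.26% an NF-κB pattern and 4.62% an AP-1 pattern. Of the 1479 protein-coding genes called higher, the shares were 11%, 7.57%, 3.04% and 7.44%. Among the 271 that rose by at least 3 on the log2 scale they were 23.6%, 13.3%, 7.38% and 13.3%. The 1375 protein-coding genes called lower lay near or under the share of all tested genes for these patterns, at 5.89%, 5.96%, 0.80% and 3.71%. Among the 202 that fell by at least 2 on the log2 scale the shares were 5.94%, 2.48%, 0% and 6.93%. The AP-1 share of these strong falls was thus above that of all tested genes. E2F letters ran the other way, with 0.81% of the genes called higher, 2.33% of those called lower and 1.67% of all. The E-box was at 8.38%, 7.71% and 7.83% in the same order. Of the 18 GTPase genes described below, 50% held an ISRE core and 38.9% a GAS pattern, and of the 36 antiviral genes 38.9% held an ISRE core. Other lists with many rises differed. Of the 17 MHC class I and immunoproteasome genes 0% held an ISRE core and 5.88% a GAS pattern, and of the 29 cytokine genes 6.9% held each. Of the 18 chemokine genes 27.8% held an ISRE core and 16.7% a GAS pattern. Members of a gene family share promoter sequence, so that these shares are not counts of independent genes. None of the 6 patterns was found in these windows before Nos2, Tnf, Il1b, Il12b, Cd40 or Tap1, which all rose, and a match is a description of letters, not evidence of binding.

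**Figure D3:**
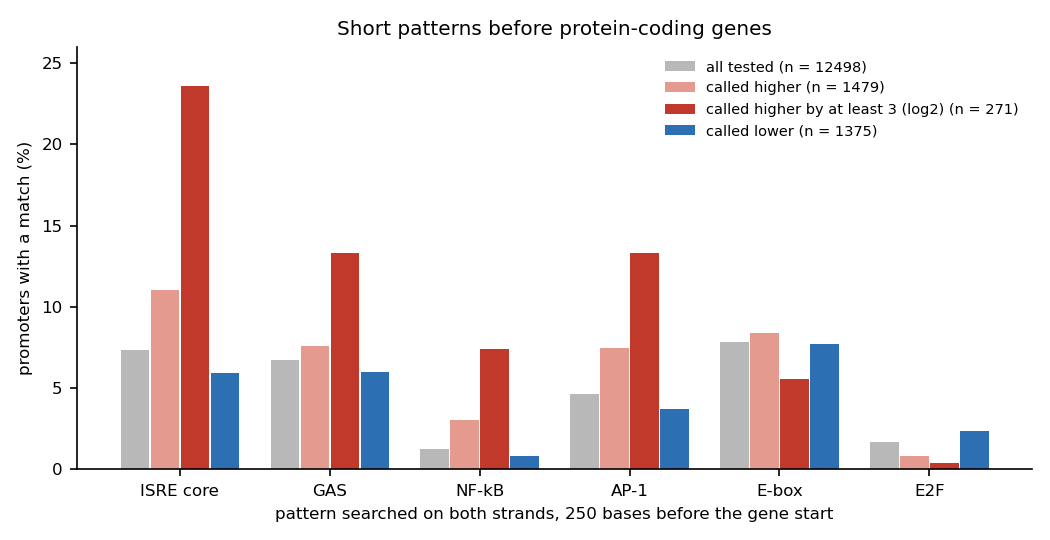
Share of protein-coding genes (%) whose 250 bases before the gene start hold each pattern, for all tested genes, genes called higher, genes called higher by at least 3 (log2) and genes called lower. The ISRE core is at 23.6% among the strongest rises against 7.32% of all tested genes.

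Csf3, Cxcl10, Il1b and Il6, 4 of the 10 largest rises, encode secreted products. Of 29 cytokine and growth factor genes tested, 24 rose and none fell, with a median log2 fold change of 3.49. With the 2 genes that had at most 3 reads in both Eff samples set to their change against 3 reads per library, it was 3.29. These 2 reached the mean of 10 only through other samples. Tnf was already at 1232 and 764 normalized counts in Eff and reached 7749 and 7573 in LPSEff (log2 fold change 2.98, SE 0.25, limma adjusted p = 0.000159). Il12b, a subunit of IL-12 and IL-23, started at 33.3 and 69.2 and reached 7089 and 13201 (log2 fold change 7.62, SE 0.43, limma adjusted p = 2.9e-05). Il10, the main anti-inflammatory cytokine of Mϕ, had at most 1 read in an Eff sample and was at 219 and 73.6 normalized counts in LPSEff (limma adjusted p = 0.0022). Ifnb1 was too low to be tested, at 0 in both Eff samples and at 7.92 and 15.2 normalized counts in LPSEff. Among the growth factors, Igf1 was the member with the lowest value (log2 fold change −1.52, SE 0.46, limma adjusted p = 0.054) and was not called.

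Of 18 chemokine genes tested, 14 rose and none fell (median 3.23). Cxcl9, which like Cxcl10 attracts T cells through CXCR3, had 3 and 7 reads in the Eff samples, or 2.63 and 4.94 normalized counts, and 6341 and 8192 in LPSEff (log2 fold change 10.60, SE 0.52, limma adjusted p = 1.54e-05). The neutrophil chemokine Cxcl1 went from 31.5 and 17.6 to 2626 and 2009 (log2 fold change 6.54, SE 0.55, limma adjusted p = 0.000157), and Ccl5, a chemokine for T cells and monocytes, from 94.6 and 79.7 to 5523 and 5617 (log2 fold change 5.99, SE 0.24, limma adjusted p = 6.66e-06). All 3 were under 100 normalized counts before stimulation. Ccl2, the main monocyte chemokine, was high already, with 13680.5 and 7666 in Eff and 26781 and 24717 in LPSEff (log2 fold change 1.33, SE 0.32, limma adjusted p = 0.0209), and it is among the calls that leaving out 1 sample ends. The call was lost without Eff replicate 2 (0.91, adjusted p = 0.14), without LPSEff replicate 1 (1.27, adjusted p = 0.101), without LPSEff replicate 2 (1.39, adjusted p = 0.0694), with equal totals (0.88, adjusted p = 0.0849) or after quantile normalization (0.32, adjusted p = 0.626). The 4 members that did not pass were Ccl12, Ccl7, Ccl9 and Ccl6, of which Ccl6 lay lowest (−0.53) at a level that held rank 1 per kilobase in Eff and rank 4 in LPSEff.

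All 18 genes for guanylate-binding proteins and immunity-related GTPases rose. These IFNγ-induced GTPases attack the vacuoles of intracellular microbes. Their median log2 fold change was 4.66. With the 5 genes at no more than 3 reads in both Eff samples set to their change against 3 reads per library, it was 4.80. These 5 reached the mean of 10 only through other samples, so that the filter in part set the count of 18. Iigp1 went from 11.4 and 5.65 to 1427 and 1352 normalized counts (log2 fold change 7.26, SE 0.64, limma adjusted p = 0.000196), Gbp5 from 51.7 and 64.2 to 5852 and 8396 (log2 fold change 6.90, SE 0.27, limma adjusted p = 6.13e-06), and Gbp2 from 112 and 139.7 to 12522 and 16478 (log2 fold change 6.83, SE 0.29, limma adjusted p = 8.34e-06). Gbp8 had the smallest rise (2.69). Several of these genes have near-identical copies, such as Tgtp1 and Tgtp2, so that single values are uncertain.

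All 36 antiviral interferon-stimulated genes rose as well, with a median of 4.54 and a range from 2.15 for Bst2, which tethers virions, to 8.89 for Rsad2. Ifit1, which binds foreign RNA, went from 38.6 and 23.3 to 7039 and 7349 (log2 fold change 7.86, SE 0.28, limma adjusted p = 3.78e-06). Isg15, a ubiquitin-like modifier, went from 56.1 and 26.1 to 7047 and 4896 (log2 fold change 7.22, SE 0.34, limma adjusted p = 1.52e-05). The RNA sensors Ifih1 (4.53) and Rigi (3.64) rose as well.

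Many of the induced genes lie side by side. Of the 1479 protein-coding genes called higher, 593 (40.1%) had a neighbouring tested protein-coding gene that was also called higher, against 21.6% of all tested protein-coding genes. The longest run was the Ifi200 family on chromosome 1 from 173347283 to 173859456, with 10 consecutive genes that rose by 2.44 to 5.34 on the log2 scale. Runs of 8 Slfn genes (chromosome 11 from 82842100 to 83109101), of 7 genes with the Gbp cluster on chromosome 5 (105162016 to 105494338) and of 6 Ifit genes on chromosome 19 (34527932 to 34639833) followed, and the Ifit run spanned 4.84 to 7.86. A run of 4 on chromosome 17 (34400960 to 34435829) held Psmb9, Tap1, Psmb8 and Tap2, which serve MHC class I. Neighbours in a family can share reads and sequence.

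**Figure D4:**
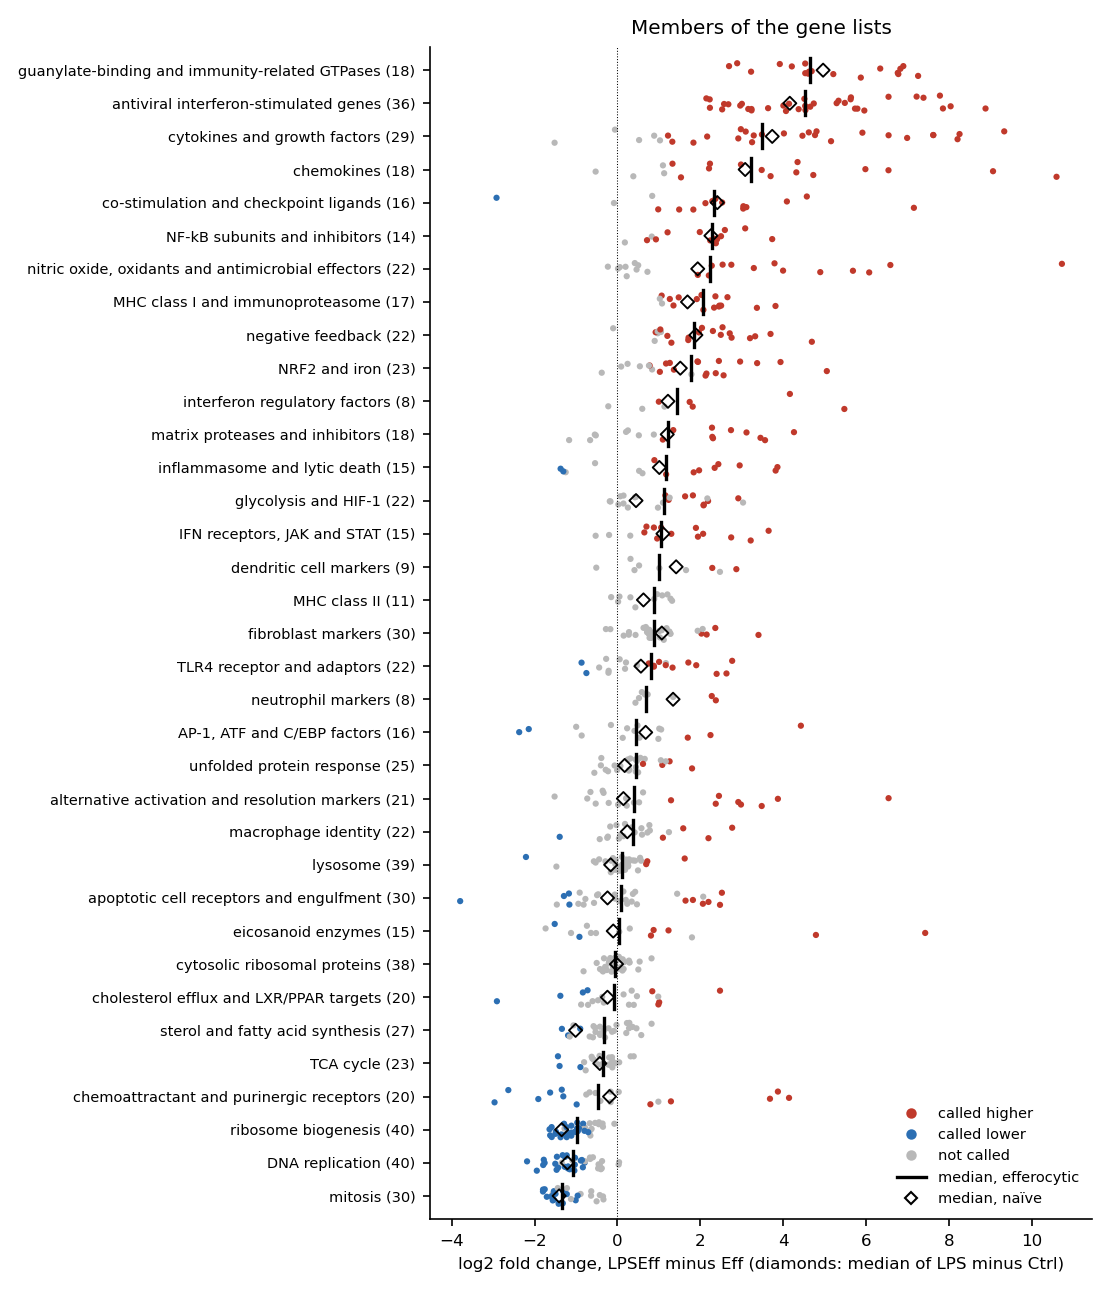
Log2 fold change of LPSEff against Eff for each tested member of 35 gene lists (1 point per gene, coloured by the limma call, number tested in brackets), with the list's median as a bar and its median in naïve Mϕ (LPS against Ctrl) as a diamond. Lists run from a median of 4.66 for the GTPases at the top to −1.34 for mitosis at the bottom, and all members of both uppermost lists are called higher.

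Antigen presentation was examined for both MHC classes. Of 17 genes of the MHC class I pathway and immunoproteasome, 15 rose and none fell (median 2.07). Tap1, a subunit of the peptide transporter, went from 500.4 and 701 to 8165 and 8544 normalized counts (log2 fold change 3.82, SE 0.24, limma adjusted p = 3.85e-05), and Nlrc5, the transactivator of class I genes, from 478 and 383 to 4707 and 4164 (log2 fold change 3.37, SE 0.23, limma adjusted p = 5.51e-05). Class I genes such as H2-Q6 and H2-Q7 have close copies and are uncertain. Of 11 MHC class II genes none was called in either direction, with a median of 0.89. H2-Ab1, a class II chain, had 2865 and 9961 in Eff and 7801 and 16368 in LPSEff, so that the groups overlap, and Ciita, the class II transactivator, had 509 and 1447 in Eff and 1184 and 2133 in LPSEff (log2 fold change 0.89, SE 0.73, limma adjusted p = 0.459). In both genes replicate 2 lay above replicate 1 in each of the 4 groups, and the difference between replicates of Eff was larger than that between the means of Eff and LPSEff. A lack of a call at this spread does not show that the class II genes stayed level. With the replicate number added to the fit, 6 of the 11 were called higher (see the closing section), but the labels do not say what that number marks.

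Co-stimulatory and checkpoint genes rose in 13 of 16 cases (median 2.33). With 1 sample left out, the count was 8 without Eff replicate 1. Cd40, the receptor for T cell help, had the largest rise, from 26.3 and 58.6 to 5490.5 and 6027 (log2 fold change 7.16, SE 0.41, limma adjusted p = 2.99e-05). Cd274, which encodes PD-L1, went from 1180.3 and 1356 to 9895 and 12121 (log2 fold change 3.11, SE 0.20, limma adjusted p = 4.32e-05), and Slamf1 (4.57) and the adhesion molecule Vcam1 (4.09) rose too. Vsir, which encodes the checkpoint protein VISTA, was the member that fell (log2 fold change −2.92, SE 0.21, limma adjusted p = 7.77e-05).

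Among 22 genes for nitric oxide, oxidants and antimicrobial effectors, 13 rose and none fell (median 2.24). Acod1 went from 1001 and 459 normalized counts in Eff to 48106 and 43751 in LPSEff (log2 fold change 6.08, SE 0.38, limma adjusted p = 4e-05), and Saa3, an acute phase protein gene, from 178 and 119 to 18045 and 10982 (log2 fold change 6.59, SE 0.46, limma adjusted p = 6.67e-05). Nos2 heads this list. Arg1, whose arginase competes with NOS2 for arginine, was at 4071 and 683 in Eff and 4999.6 and 759 in LPSEff and was not called (log2 fold change 0.22, SE 1.45, limma adjusted p = 0.939). In each of the 4 groups Arg1 was higher in replicate 1. Of 15 inflammasome and lytic death genes, 9 rose and 2 fell. The count of falls became 1 without Eff replicate 1, Eff replicate 2, LPSEff replicate 1, LPSEff replicate 2, Ctrl replicate 1 or Ctrl replicate 2. Casp4, which encodes the sensor of cytosolic LPS (3.86), Mefv (3.82) and Nlrp3 (2.95) led the rises, while Pycard, the adaptor of inflammasomes, fell (log2 fold change −1.31, SE 0.20, limma adjusted p = 0.00296), as did Gsdme (−1.37).

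Eicosanoid genes had a median near 0 (0.04 over 15 tested) with 5 higher and 2 lower, a balance that turned to 2 and 5 with equal totals and to 4 and 4 after quantile normalization. The count of rises became 2 without Eff replicate 1, Eff replicate 2, LPSEff replicate 1 or LPSEff replicate 2 and 3 without Ctrl replicate 1 or Ctrl replicate 2, and that of falls 1 without Eff replicate 1, Eff replicate 2 or LPSEff replicate 1. Ptgs2, the inducible cyclooxygenase, went from 235 and 279 to 44402 and 44283 (log2 fold change 7.43, SE 0.18, limma adjusted p = 9.37e-07) and Ptges, the prostaglandin E synthase that acts with it, from 51.7 and 66.3 to 2258 and 1204 (log2 fold change 4.79, SE 0.58, limma adjusted p = 0.00103). Ptgs1, the constitutive form, fell from 1626 and 1307 to 525 and 495 (log2 fold change −1.51, SE 0.24, limma adjusted p = 0.00386). The other member that fell was Tbxas1, the thromboxane synthase (−0.92).

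Metabolic genes were read in lists by pathway. In the glycolysis and HIF-1 list, 8 of 22 rose and none fell (median 1.13), against 5 and 0 with equal totals and 5 and 1 after quantile normalization. The count of rises became 4 without Eff replicate 1 and 5 without Eff replicate 2 or LPSEff replicate 1. Hk2, a hexokinase, went from 999.8 and 865 to 5214 and 3451 (log2 fold change 2.19, SE 0.27, limma adjusted p = 0.00116), and Hif1a from 1720.1 and 1667 to 7353 and 7018 (log2 fold change 2.08, SE 0.19, limma adjusted p = 0.000234). The glucose transporter gene Slc2a1 was at 1543 and 1260.4 in Eff and 7464 and 3262 in LPSEff (log2 fold change 1.82, SE 0.48, limma adjusted p = 0.0319), a call lost without Eff replicate 1 (1.97, adjusted p = 0.0936), without Eff replicate 2 (1.68, adjusted p = 0.141), without LPSEff replicate 1 (1.23, adjusted p = 0.182), with equal totals (1.37, adjusted p = 0.0753) or after quantile normalization (1.21, adjusted p = 0.111). Gapdh, often used as a reference, was not called (log2 fold change 0.07, SE 0.36, limma adjusted p = 0.926), and its LPSEff samples were at 1555 and 783 normalized counts. Of 23 TCA cycle genes 3, the isocitrate dehydrogenase genes Idh3a, Idh1 and Idh2, fell and none rose (median −0.34). The share that fell was near the 8.95% of all tested genes. With equal totals 16 fell, and after quantile normalization 11. Idh3a went from 400.5 and 447 to 134 and 181 (log2 fold change −1.44, SE 0.24, limma adjusted p = 0.0045), whereas the call of Idh1 was lost without Eff replicate 2 (−1.12, adjusted p = 0.0765) or without LPSEff replicate 1 (−1.06, adjusted p = 0.0728) and that of Idh2 without Eff replicate 2 (−0.80, adjusted p = 0.0845) or without LPSEff replicate 2 (−0.81, adjusted p = 0.069).

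Lipid genes were mostly not called. Of 27 genes of sterol and fatty acid synthesis, Dhcr7, Fasn and Lss passed the test, all lower, a share near the 8.95% of all tested genes. With equal totals 12 fell. The call of Dhcr7 (−1.34) was lost without Eff replicate 1 (−1.40, adjusted p = 0.111), without Eff replicate 2 (−1.28, adjusted p = 0.139), without LPSEff replicate 1 (−0.83, adjusted p = 0.165), without Ctrl replicate 1 (−1.34, adjusted p = 0.0573), without Ctrl replicate 2 (−1.34, adjusted p = 0.0579) or in a fit of the groups compared only (−1.34, adjusted p = 0.0641), and that of Lss (−0.90) without Eff replicate 1 (−0.78, adjusted p = 0.126), without Eff replicate 2 (−1.01, adjusted p = 0.0573), without LPSEff replicate 1 (−0.91, adjusted p = 0.0843) or without LPSEff replicate 2 (−0.89, adjusted p = 0.0768). Fasn, the fatty acid synthase, went from 2673 and 1848 to 1076 and 879 (log2 fold change −1.19, SE 0.26, limma adjusted p = 0.015), but was not called without Eff replicate 1 (−0.92, adjusted p = 0.108) or without LPSEff replicate 2 (−1.05, adjusted p = 0.0846). Of 20 genes for cholesterol efflux and LXR or PPAR targets, 4 rose and 4 fell, against 2 and 9 with equal totals (median −0.09). The count of rises became 2 without Eff replicate 1, Eff replicate 2, Ctrl replicate 1 or Ctrl replicate 2 and 1 without LPSEff replicate 1, and that of falls 1 without Eff replicate 1 or Eff replicate 2 and 2 without LPSEff replicate 1 or LPSEff replicate 2. Abca1, the cholesterol exporter, rose from 1539 and 1546 to 7162 and 10289 (log2 fold change 2.48, SE 0.35, limma adjusted p = 0.00212), and Pparg, a nuclear receptor, fell from 114 and 102 to 9.5 and 19 (log2 fold change −2.91, SE 0.46, limma adjusted p = 0.0036).

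The machinery of clearance itself showed no common direction. Of 30 receptor and engulfment genes tested, 6 rose and 4 fell, against 5 and 10 with equal totals or after quantile normalization, with a median of 0.09. Mertk, a receptor for phosphatidylserine bridged by Gas6 or protein S, went from 166 and 269.6 to 706 and 1348 (log2 fold change 2.20, SE 0.40, limma adjusted p = 0.00672), and Xkr8, a scramblase gene, rose as well (2.52). Cd300lb, a receptor of the CD300 family, fell from 1019.99 and 957 to 77.6 and 63.5 (log2 fold change −3.80, SE 0.24, limma adjusted p = 4.32e-05). Of 39 lysosomal genes, 3 rose and 1 fell (median 0.10), which turned to 1 and 8 with equal totals and 1 and 9 after quantile normalization. The share of rises was no larger than the 10.7% of all tested genes, and the count of rises became 1 without Eff replicate 1, Eff replicate 2, LPSEff replicate 1, LPSEff replicate 2, Ctrl replicate 1 or Ctrl replicate 2, while that of falls became 2 without LPS replicate 1 or LPS replicate 2. Ctsc, which encodes cathepsin C, rose (1.62), and the member that fell was Tfeb, a transcription factor for lysosomal genes, from 306 and 239.9 to 58.6 and 57.1 (log2 fold change −2.21, SE 0.29, limma adjusted p = 0.00139).

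Of 21 markers of alternative activation and resolution tested, 8 rose, none fell and the median was 0.40, whereas 6 rose and 3 fell with equal totals and 4 and 3 after quantile normalization. The count of rises became 4 without Eff replicate 2 and 5 without LPSEff replicate 1. The members that rose include Il10, Fpr2, a receptor of resolving and inflammatory ligands (3.87), and the chemokine genes Ccl22 and Ccl17, for which the list name is not specific. Mrc1, the mannose receptor, was at 2778 and 3829 in Eff and 1536 and 4219 in LPSEff (log2 fold change −0.36, SE 0.48, limma adjusted p = 0.675). Mmp12, the macrophage elastase and one of the most abundant protein-coding genes of these cells per kilobase of exon, was at 34223 and 68433 in Eff and 33903 and 92168 in LPSEff (log2 fold change 0.21, SE 0.59, limma adjusted p = 0.854), and replicate 2 was above replicate 1 by more than the difference between the groups. Among 18 matrix protease and inhibitor genes 10 rose and none fell, against 9 and 3 with equal totals (median 1.22), with Adamts4 from 14 and 10.6 to 129.8 and 159 (log2 fold change 3.45, SE 0.50, limma adjusted p = 0.0024) and Mmp13 (3.12) as examples. The count of rises in this list became 6 without LPSEff replicate 1.

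Of 22 Mϕ identity genes tested, 4 were called higher and 1 lower (3 and 6 after quantile normalization), with a median of 0.38. Of all tested genes 10.7% were higher and 8.95% lower. In edgeR and in DESeq2 7 of the 22 were called higher, and with the replicate block in limma 10 were higher and 2 lower. Csf1r, the M-CSF receptor, was at 4981 and 4979.6 in Eff and 3835 and 5079 in LPSEff (log2 fold change −0.17, SE 0.22, limma adjusted p = 0.644), and it was called lower after quantile normalization (−0.95). Receptors for chemoattractants and purines went both ways, with 5 of 20 higher and 7 lower (median −0.47). The count of rises became 3 without Eff replicate 1, and that of falls 4 without Eff replicate 1 or LPSEff replicate 2. Fpr1, which senses bacterial formyl peptides, rose from 34.2 and 19.1 to 502 and 437 (log2 fold change 4.14, SE 0.53, limma adjusted p = 0.00127) and Adora2a, an adenosine receptor gene, from 44.7 and 38.8 to 659 and 453 (log2 fold change 3.68, SE 0.25, limma adjusted p = 5.99e-05). The monocyte chemokine receptor gene Ccr2 fell (log2 fold change −2.63, SE 0.35, limma adjusted p = 0.0016), as did C5ar2 (−2.97), S1pr1 (−1.91) and C3ar1 (−1.62).

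The largest falls among genes with over 3 reads in every Eff and LPSEff sample were in genes of diverse function. Pald1, which encodes paladin, went from 603 and 701 normalized counts in Eff to 36.4 and 40.6 in LPSEff (log2 fold change −4.04, SE 0.20, limma adjusted p = 1.69e-05), and Eepd1, an endonuclease family gene, from 557 and 441 to 37.2 and 24.1 (log2 fold change −4.0, SE 0.29, limma adjusted p = 7.77e-05). Id1, an inhibitor of helix-loop-helix factors, went from 2086 and 1379.7 to 127 and 133 (log2 fold change −3.70, SE 0.27, limma adjusted p = 8.27e-05). In all 3 the samples of a group lay close together and far from the other group. Cnr2, the cannabinoid receptor of immune cells, went from 566 and 527 to 30.9 and 63.5 (log2 fold change −3.59, SE 0.36, limma adjusted p = 0.000364), and Lpar5, a lysophosphatidic acid receptor, from 65.7 and 109 to 3.96 and 10.2 (log2 fold change −3.52, SE 0.52, limma adjusted p = 0.00277). Rab3il1 (−3.68), Tns1, which encodes the focal adhesion protein tensin 1 (−3.59), and the unnamed Gm47815 (−3.60) and Gm36569 (−3.54) complete the 10 with Cd300lb. At most 3 reads in both LPSEff samples were found for 11 tested genes. They passed the filter on the mean only through other samples, and 7 of them were called lower. Of these the most abundant in Eff were Ccdc69, at 31.5 and 35.3 normalized counts in Eff and 0.792 and 1.27 in LPSEff (limma adjusted p = 0.000998), the channel subunit gene Kcne3 (14.9 and 43.8 in Eff), Gm4610 (28.9 and 21.9), the adaptor gene Gab3 (21 and 23.3) and Gm28626 (19.3 and 23.3). The call of Kcne3 was lost without Eff replicate 2 (adjusted p = 0.167), without LPSEff replicate 1 (adjusted p = 0.129) or without LPSEff replicate 2 (adjusted p = 0.0517), and that of Gm4610 without Eff replicate 1 (adjusted p = 0.119), without Eff replicate 2 (adjusted p = 0.0704), without LPSEff replicate 1 (adjusted p = 0.0761) or without LPSEff replicate 2 (adjusted p = 0.0605).

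Many genes of growth and division fell. Of 40 DNA replication genes 25 fell and none rose (median −1.07), and of 30 mitosis genes 19 fell and none rose (median −1.34). These counts depend on single samples, as does the count of all genes called lower. The count of DNA replication genes that fell became 11 without Eff replicate 1, 16 without Eff replicate 2 and 15 without LPSEff replicate 1, and that of mitosis genes 9 without Eff replicate 1, 5 without Eff replicate 2 and 3 without LPSEff replicate 1. Rrm2, a subunit of ribonucleotide reductase, went from 450.4 and 526 to 95 and 119 (log2 fold change −2.18, SE 0.25, limma adjusted p = 0.00085), Mcm2, a subunit of the replicative helicase, from 1093 and 776 to 278 and 265 (log2 fold change −1.76, SE 0.21, limma adjusted p = 0.000953), and Cdc6, which loads it, from 211 and 182 to 40.4 and 62.2 (log2 fold change −1.95, SE 0.29, limma adjusted p = 0.00267). Anln (−1.76) and the cyclin gene Ccnb2 (−1.80) were among the largest falls of the mitosis list. Top2a, a marker of cycling cells, was at 1432 and 2055 in Eff and 1042 and 1768 in LPSEff and was not called (log2 fold change −0.34, SE 0.34, limma adjusted p = 0.552), nor was Mki67 (−0.50, adjusted p = 0.105 from limma). In these bulk samples, fewer cycling cells and less of these RNAs per cell cannot be told apart.

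Of 40 ribosome biogenesis genes 26 fell and none rose (median −0.97). With 1 sample left out, the count that fell was 7 without Eff replicate 1, 16 without Eff replicate 2 and 6 without LPSEff replicate 1. Dkc1, the pseudouridine synthase of snoRNPs, went from 298 and 285 to 77.6 and 119 normalized counts (log2 fold change −1.59, SE 0.26, limma adjusted p = 0.00461), and Rrp12 (−1.50) and Heatr1 (−1.37), which serve pre-rRNA processing, fell by similar amounts. Of 38 ribosomal protein genes 0 were called, and their median was −0.05. Rpl4 was at 3222 and 4097 in Eff and 2811 and 3519 in LPSEff (log2 fold change −0.21, SE 0.24, limma adjusted p = 0.613). With equal totals 10 of the 38 and after quantile normalization 4 were called lower, Rpl4 among them (−0.66), and Rpl4 was also called lower after quantile normalization (−0.91). These genes have many processed pseudogenes, so that their counts are uncertain.

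**Figure D5:**
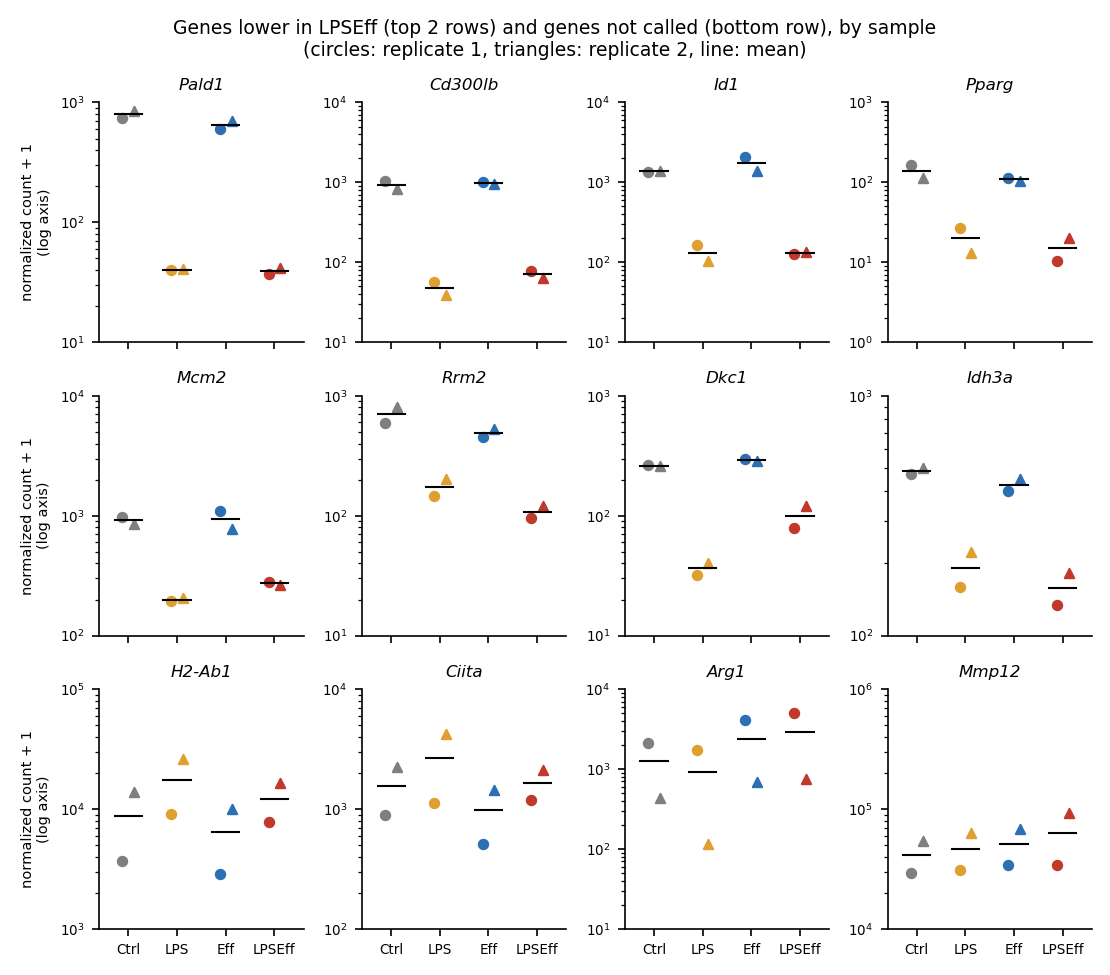
Normalized count + 1 (log axis) in each sample of the 4 groups for 8 genes that fell (upper panels) and 4 that were not called (bottom row), with circles for replicate 1, triangles for replicate 2 and a line at the mean. For H2-Ab1, Ciita, Arg1 and Mmp12 the replicates of a group lie further apart than the means of Eff and LPSEff, as at 4071 and 683 against 4999.6 and 759 for Arg1.

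Of 23 NRF2 and iron genes, 16 rose and none fell (median 1.79). Slc7a11, the cystine importer, went from 1363 and 2203 to 14668 and 21978 (log2 fold change 3.37, SE 0.34, limma adjusted p = 0.000413), and Hmox1, which degrades heme, moved from rank 57 to rank 14 per kilobase (log2 fold change 2.37, SE 0.46, limma adjusted p = 0.0089). Hamp, which encodes the iron hormone hepcidin, was listed at 0 in both Eff samples and at 37.2 and 27.9 normalized counts in LPSEff, at least 13.7-fold higher when Eff is set to 3 reads per library. Of 25 genes of the unfolded protein response, 4 were called higher, a share near the 10.7% of all tested genes, and none lower (median 0.44), but 2 rose and 5 fell with equal totals and 3 and 6 after quantile normalization. The count of genes called higher became 2 without Eff replicate 1 or LPSEff replicate 1 and 1 without Eff replicate 2 or LPSEff replicate 2. Ppp1r15a, which recruits the eIF2α phosphatase, went from 133 and 187 to 678 and 451 (log2 fold change 1.80, SE 0.25, limma adjusted p = 0.00212). Hspa5, the main chaperone of the endoplasmic reticulum, went from 9669.8 and 9387 to 18292 and 22279 (log2 fold change 1.08, SE 0.21, limma adjusted p = 0.00899), but it was not called without Eff replicate 1 (1.1, adjusted p = 0.0594), without Eff replicate 2 (1.06, adjusted p = 0.0646), without LPSEff replicate 2 (0.94, adjusted p = 0.0565) or after quantile normalization (0.16, adjusted p = 0.645).

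Among markers of other cells, 4 of 30 fibroblast genes rose in the main fit, a share near the 10.7% of all tested genes. They were Cav1 from 184 and 271 to 2472 and 2283 (log2 fold change 3.41, SE 0.22, limma adjusted p = 4.69e-05), Fstl1 (2.15), Pdgfrb (2.03) and Lox (2.36). The count depends on the test. It was 7 in a fit of the groups compared only, where 1710 of all tested genes rose. In DESeq2 it was 12, where 2025 rose, and with the replicate block in limma 13, where 3101 rose. With 1 sample left out, the count of fibroblast genes that rose was 2 without Eff replicate 1 or LPSEff replicate 2 and 7 without Eff replicate 2. Lox lost its call without Eff replicate 1 (1.52, adjusted p = 0.187), without LPSEff replicate 1 (2.20, adjusted p = 0.152), without LPSEff replicate 2 (2.53, adjusted p = 0.093), with equal totals (1.91, adjusted p = 0.0597) or in edgeR (2.19, adjusted p = 0.0549). Cav1 was also at 103 and 125 in Ctrl and 1803 and 1699 in LPS, with a log2 fold change of 3.94 where no fibroblasts had been added. Collagen genes such as Col1a1 (193 and 284 in Eff, 606 and 537 in LPSEff) were present and not called. Of 9 dendritic cell markers tested Fscn1 (2.87) and Ccr7 (2.29) rose, both of which mature antigen-presenting cells induce, and of 8 neutrophil markers Csf3r and Camp rose, at no more than 54.6 and 95.0 normalized counts in an LPSEff sample. Camp lost its call without Eff replicate 1 (2.88, adjusted p = 0.0563), without Eff replicate 2 (1.68, adjusted p = 0.214), without LPSEff replicate 1 (1.58, adjusted p = 0.249), without Ctrl replicate 1 (2.28, adjusted p = 0.0584), without Ctrl replicate 2 (2.28, adjusted p = 0.0582), with equal totals (1.85, adjusted p = 0.0753) or in a fit of the groups compared only (2.28, adjusted p = 0.0528), and Csf3r without Eff replicate 1 (1.82, adjusted p = 0.128) or without LPSEff replicate 1 (1.93, adjusted p = 0.144). Tbp, a general transcription factor gene, was not called (log2 fold change −0.18, SE 0.19, limma adjusted p = 0.564), though it was called lower with equal totals (−0.63).

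Naïve Mϕ were compared to see whether any of this differed after efferocytosis. In them 3910 genes were called (24%), 2015 higher (12.4%) and 1895 lower (11.6%). The Ctrl and LPS samples are not shared with Eff or LPSEff, but the fit gives each gene the same SE in both comparisons. The calls of both are thus not independent. Of the 1753 genes called higher in efferocytic Mϕ, 1496 were also called higher in naïve Mϕ and 6 had a change of the other sign, and of the 1460 called lower 1204 were also called lower and 1 had the other sign. The difference between both responses reached an adjusted p under 0.05 in limma for 0 genes (0%), and in edgeR and DESeq2 for 0 as well. At an unadjusted p under 0.05 there were 311 of 16309 genes, fewer than that cut-off lets through when no gene differs. With n = 2 per group this does not show that both responses are alike.

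The smallest p for the difference, among genes called in efferocytic Mϕ, was that of Ptgs2. It rose by 7.43 in efferocytic and by 8.91 in naïve Mϕ, from 83.8 and 86.7 normalized counts in Ctrl to 45344 and 37842 in LPS (difference −1.48, SE 0.26). The levels after stimulation overlapped, and both Eff samples lay above both Ctrl samples. The next were Ctps1, which makes CTP (difference 1.87, SE 0.35), and the kinase gene Dyrk3 (difference 2.14, SE 0.41), both with a smaller fall in efferocytic Mϕ. Ctps1 was at 206 and 205 in Eff and 83.9 and 110.4 in LPSEff, against 159.9 and 166 in Ctrl and 18.1 and 22.3 in LPS, and both genes lost their efferocytic call without single samples. Ctps1 did so without Eff replicate 1 (−1.08, adjusted p = 0.0964), without Eff replicate 2 (−1.09, adjusted p = 0.0925) or without LPSEff replicate 1 (−0.89, adjusted p = 0.118). Dyrk3 did so without Eff replicate 1 (−1.21, adjusted p = 0.0989), without Eff replicate 2 (−0.92, adjusted p = 0.2), without LPSEff replicate 1 (−0.90, adjusted p = 0.183), without LPSEff replicate 2 (−1.24, adjusted p = 0.0723), without Ctrl replicate 1 (−1.07, adjusted p = 0.0612), without Ctrl replicate 2 (−1.07, adjusted p = 0.0639), with all genes above a mean of 0 tested (−1.07, adjusted p = 0.0907), in a fit of the groups compared only (−1.07, adjusted p = 0.0653) or in DESeq2 (−1.07, adjusted p = 0.0507). The small RNA gene Gm24200 (difference 1.96, SE 0.45) and the mitochondrial tRNA gene mt-Tm (difference 1.29, SE 0.32) rose in efferocytic Mϕ and changed by 0.18 and 0.03 in naïve Mϕ. The limma adjusted p of each of these differences was 1.00.

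List medians were set side by side. Cytokines had a median of 3.49 in efferocytic and 3.74 in naïve Mϕ, GTPases 4.66 and 4.97, and antiviral genes 4.54 and 4.16. Sterol and fatty acid synthesis stood further apart, at −0.33 and −1.01, with 3 genes called lower in efferocytic and 12 in naïve Mϕ, and 9 of its 27 genes had an unadjusted p under 0.05 for the difference. Their summed level was 24674 and 25644 normalized counts in Ctrl and 12763 and 12345 in Eff, so that both Eff samples were lower than both Ctrl samples before any stimulation. After stimulation it was 11005 and 15995 in LPS and 10265 and 10229 in LPSEff. Ribosome biogenesis had medians of −0.97 and −1.35, with 26 and 32 genes called lower and 5 of 40 with such a p, and Dkc1 had a smaller fall in efferocytic Mϕ (difference 1.27, SE 0.37), a difference that limma did not call. Beside the eicosanoid genes Ptgs2 and Ptgs1 (difference 0.89, SE 0.34), the named genes of the inflammatory and interferon lists whose 95% interval for the difference lay apart from 0 went both ways. Il6 (difference −1.12, SE 0.35) and Tnf (difference −0.84, SE 0.36) had a smaller log2 fold change in efferocytic Mϕ. Ifit1 (difference 1.35, SE 0.39), Nos2 (difference 1.13, SE 0.38), Gbp5 (difference 0.89, SE 0.38), Casp4 (difference 0.78, SE 0.31) and Stat2 (difference 0.59, SE 0.23) had a larger one. The limma adjusted p was 1.00 for each of these genes. For Il1b the 95% interval of the difference, −1.39 to 0.44, includes 0, as it does for Cxcl10 (−0.40 to 1.82).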

How the data were processed

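RNA of CD45+ Mϕ was depleted of rRNA and sequenced by the authors as single-end reads, with adapters removed by cutadapt, rRNA reads by bowtie2, mapping by STAR (mm39) and gene counts by htseq-count in its default mode. Versions and annotation release are not given in the sources used here. The deposited values are a signal per gene, namely normalized counts in which reads were scaled by the size factor of their sample. All values were whole multiples of the smallest step of their sample (100%, tolerance 0.02 reads), which gave back the counts of reads.

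Differences were tested with limma 3.58.1 (R 4.3.3) as limma-trend, after log2 transformation with a pseudocount of 1, on the 16309 genes whose mean reached 10, with 4 group means in 1 fit (4 residual degrees of freedom) and Benjamini-Hochberg adjustment over these genes. The study used DESeq2 on counts. Genes were named from GENCODE M39, and promoters were read from GRCm39, the same build. Alternatives, including edgeR 4.0.16 with TMM and DESeq2 1.42.0 on the recovered reads, are given in the closing section. The tests were checked on simulated counts.

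Genes named are the 10 largest rises and falls with over 3 reads in every Eff and LPSEff sample, the 5 most abundant called genes with at most 3 reads in both samples of a group, the 3 largest called changes of each list, fixed core genes, and the 5 called genes with the smallest p for the difference between both responses. Other members named as examples were chosen after their values were seen. The genes, lists and comparisons were chosen with earlier results of these data known. Intervals for the difference between both responses were built from the limma SE and so measure the spread between samples, which may be technical. Floors of 3 reads cover counting error only. Some genes that this rule names are not reported here.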

Additional observations from a re-analysis of the deposited data

How the results depend on the processing

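The count of 3213 genes stayed within 1.5 times under pseudocounts of 0.5 and 5, other filters on low values, quantile normalization, a fit of the groups compared only, edgeR and DESeq2 (2627 to 3740, with 3139 genes shared by edgeR and 3033 by DESeq2, where 949 adjusted p were not given). With equal totals 5578 genes were called, 4362 of them lower. Leaving out 1 of the 8 samples, whose group is then 1 sample assumed to vary like the other groups, gave between 1567 and 3407 genes (1009 to 1824 higher, 542 to 1583 lower). The count was 1567 and 1790 without Eff replicate 1 and 2, 1593 and 2037 without LPSEff replicate 1 and 2, and 2786 to 3407 without a Ctrl or LPS replicate, which was added after the values had been seen. The replicate numbers share only a number in the labels. Across genes, the deviations of samples with the same number correlated between groups, with r from 0.404 to 0.595 (0.591 for Eff and LPSEff). With the replicate block limma called 6033 genes (3101 higher, 2932 lower), including all 3213, and edgeR with the replicate block, added later, called 6314 (3443 higher, 2871 lower). Of 11 MHC class II genes, 6 were called higher with limma and this block, among them H2-Ab1 (1.08, adjusted p = 0.00167) and Ciita (0.89, adjusted p = 0.00621), and Ifngr1 was called lower (−0.53, adjusted p = 0.0334). The difference between both responses stayed at 0 genes in every alternative that gave it, and a fit of the groups compared only gives none. Of 146 named genes 131 were called, 31 of these lost the call without at least 1 sample, and Ctsz, a lysosomal protease gene, changed sign after quantile normalization (−0.23, against 0.72). The cause was not tested. Depth limits low genes most, since 907 tested genes had an Eff mean under 10 and 627 an LPSEff mean under 10.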

Other observations

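Genes that make no protein were part of the response. Of 1240 long noncoding RNA genes tested, 134 (10.8%) rose and 57 (4.6%) fell in LPSEff against Eff (limma adjusted p under 0.05), against 11.8% and 11% of 12498 protein-coding genes. Small nuclear and nucleolar RNAs, which serve splicing and the modification of rRNA, moved in 1 direction. Of 150 snRNA genes 25 rose, of 114 snoRNA genes 18 and of 19 scaRNA genes 5, and none of these genes fell. Their medians were 1.13, 0.92 and 0.64 on the log2 scale. The snRNA genes summed to 17555 and 12439 normalized counts in the Eff samples and to 42370 and 26316 in the LPSEff samples, and the snoRNA genes to 7196 and 9150.4 in Eff and to 15948 and 21112 in LPSEff. In naïve Mϕ 11 snRNA, 5 snoRNA and 2 scaRNA genes rose and the medians were 0.60, 0.63 and 0.57, and the difference between both responses was not called for any gene. With equal totals 11 snRNA, 5 snoRNA and 1 scaRNA genes rose, 1 snRNA gene fell, and the medians were 0.70, 0.48 and 0.20. Many snRNA genes have near-identical copies, and total RNA libraries capture short RNAs unevenly, so that single values are uncertain.

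Of 1382 processed pseudogenes 16 rose (1.16%) and 4 fell (0.29%), and of 21 unprocessed pseudogenes 6 rose (28.6%) and 1 fell (4.76%).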
